A study of Mus musculus with 6 samples.

Results

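Glucocorticoid-responsive genes and the receptors for the hormone were read across 3 brain regions of mice given PAMAM dendrimers or saline. The members were the probes whose gene name in the scanner files is Fkbp5, Zbtb16, Map3k6, Plin4, Tsc22d3, Sgk1, Nr3c1, Nr3c2 or Hsd11b1. These 9 genes have 11 probes of the 55681 on the array, since Map3k6 and Nr3c1 have a pair of probes each. All 11 were well above background on all 6 arrays, so no member was lost to a filter on low signal. The genes were chosen with earlier results of these data known.

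PAMAM dendrimers are branched polyamidoamine polymers studied as carriers of drugs and nucleic acids. The 6 groups were the olfactory bulb, hippocampus and cerebral cortex with PAMAM at 0.15 mg/kg and the same regions with saline, the vehicle, and each group has 1 array. All animals were male BALB/c mice of 8 weeks, dosed a single time through the nose and sampled 24 h later, and every array carried RNA pooled over 6 independent experiments. Pooling leaves no measure of the spread between animals, and whether the same mice gave all 3 regions is not stated.

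Corticosterone, the main glucocorticoid of mice, crosses into the brain and binds receptors in the cytoplasm, which then move to the nucleus and act on genes that carry glucocorticoid response elements. The glucocorticoid receptor is encoded by Nr3c1 and the mineralocorticoid receptor, which binds corticosterone with higher affinity, by Nr3c2. Hsd11b1 encodes the enzyme that regenerates active corticosterone from its inactive keto form inside cells. Fkbp5, Zbtb16, Map3k6, Plin4, Tsc22d3 and Sgk1 are genes whose RNA is known to be induced by the activated receptor.

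The response element is a pair of inverted half-sites, and the 250 bases before each transcript start in RefSeq (build GRCm38.p6) were searched for it as GNACA, any 3 bases and then the reverse complement TGTNC, and for the half-site TGTTCT on both strands. Of the 9 genes, 7 had such windows, 14 in all because Sgk1 and Tsc22d3 have several starts, and Zbtb16 and Nr3c1 had no entry. The palindrome stood in 2 of the 14 windows, against 0.387% of 32851 windows of the same length from all genes, and the half-site in 4 of 14, against 16.1%. A match is a description of the letters and not evidence of binding. Of the windows below, those of Sgk1 and Map3k6 hold the palindrome, that of Tsc22d3 a half-site only and that of Fkbp5 neither, and capitals mark the matched letters. The other windows of Sgk1 and Tsc22d3, not shown, hold no palindrome, and some of Sgk1 and all of Tsc22d3 hold no half-site either. Every window with a half-site, apart from that of Tsc22d3, is of Sgk1.
Sgk1 (chr10:21993640-21993889, plus strand): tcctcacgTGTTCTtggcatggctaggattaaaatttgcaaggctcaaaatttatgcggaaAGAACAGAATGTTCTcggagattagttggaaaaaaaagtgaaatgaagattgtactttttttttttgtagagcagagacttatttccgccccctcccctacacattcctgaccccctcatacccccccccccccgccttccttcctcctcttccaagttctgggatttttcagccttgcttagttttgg
Map3k6 (chr4:133240568-133240817, plus strand): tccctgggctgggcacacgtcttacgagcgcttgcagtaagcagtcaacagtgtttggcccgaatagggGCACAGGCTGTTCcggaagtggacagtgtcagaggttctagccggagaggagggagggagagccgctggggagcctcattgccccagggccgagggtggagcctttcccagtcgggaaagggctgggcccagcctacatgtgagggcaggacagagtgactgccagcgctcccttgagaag
Tsc22d3 (chrX:140600523-140600772, minus strand): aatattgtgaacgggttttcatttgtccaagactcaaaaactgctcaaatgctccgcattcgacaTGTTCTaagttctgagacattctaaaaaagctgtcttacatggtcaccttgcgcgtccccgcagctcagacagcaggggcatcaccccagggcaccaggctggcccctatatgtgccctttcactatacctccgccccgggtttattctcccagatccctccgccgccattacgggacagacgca
Fkbp5 (chr17:28486150-28486399, minus strand): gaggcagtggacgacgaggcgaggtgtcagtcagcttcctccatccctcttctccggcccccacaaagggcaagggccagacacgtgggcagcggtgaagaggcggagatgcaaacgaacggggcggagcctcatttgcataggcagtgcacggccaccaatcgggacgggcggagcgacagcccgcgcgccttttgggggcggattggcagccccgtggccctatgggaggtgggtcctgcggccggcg
In the Sgk1 window 175 bases lie between the palindrome and the transcript start, and a half-site on each strand overlaps it, with another half-site farther upstream. In the Map3k6 window the palindrome lies 168 bases from the start and no half-site was found. The plots and values below show that Map3k6 was higher with PAMAM in the 3 regions, whereas Sgk1, whose window shown here holds the palindrome and 3 half-sites, was not.

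Signals are given as log2 values relative to the 75th percentile of their array, so 0 is a probe at that percentile. Levels of different probes are not compared, because probes differ in how strongly they hybridise. Differences are PAMAM minus saline on this log2 scale within a region, each from 1 array against 1 array with no replicate check. Spots of probes printed repeatedly on the same array gave a spot-noise SD of such a difference of 0.095 for olfactory bulb, 0.094 for hippocampus and 0.098 for cortex, which leaves out labelling, hybridisation and animals. Over all probes measured in a region the median difference was -0.0035 for olfactory bulb, 0.0027 for hippocampus and -0.0018 for cortex.

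Of the 6 responsive genes, 5 had higher signal with PAMAM in all 3 regions on every probe they have: Fkbp5, Zbtb16, Map3k6, Plin4 and Tsc22d3. Their 6 probes were each higher by more than the spot-noise SD in each region, a pattern that 3.17% of the 29553 probes well above background on all arrays showed. The genes and this rule were chosen with the data known, so that share is given as a description. By any amount 14.4% of those probes were higher in all 3 regions and 14.8% lower, and 3 member probes were lower in all 3, those of Sgk1, Nr3c1 probe 2 and Hsd11b1. Of these, Nr3c1 probe 2 was lower by more than the spot-noise SD each time, as 4.27% of the probes were. That SD is for values of single spots, so it overstates the spot noise of Hsd11b1, whose value is a mean over repeated spots. No member reached a 2-fold difference in any region, while 0.0685% of all olfactory bulb probes were at least 2-fold higher with PAMAM and 0.238% lower, with 0.61% and 0.0601% for hippocampus and 0.326% and 0.487% for cortex. Over the 7 probes of the responsive genes the median difference was 0.34 for olfactory bulb, 0.17 for hippocampus and 0.37 for cortex, and over the 4 probes of Nr3c1, Nr3c2 and Hsd11b1 it was -0.15, -0.22 and -0.18. A lower share of cells with a transcript and less of it per cell cannot be told apart in tissue RNA.

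**Figure D1:**
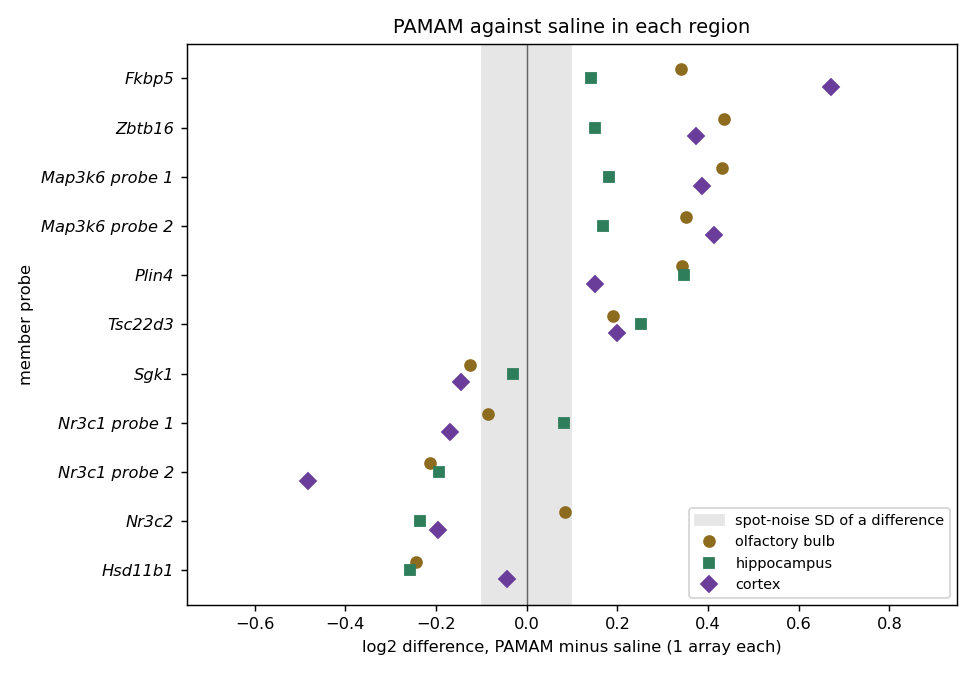
Log2 difference of PAMAM minus saline (horizontal axis) for each of the 11 member probes (rows) in the olfactory bulb, hippocampus and cortex, 1 array per group, with the spot-noise SD of a difference shaded. The 6 probes of Fkbp5, Zbtb16, Map3k6, Plin4 and Tsc22d3 lie to the right of the shading in every region, and Nr3c1 probe 2 lies to its left in every region.

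Fkbp5, a co-chaperone that holds the glucocorticoid receptor in a state of low affinity and is itself induced by it, had a log2 signal of 2.09 with PAMAM and 1.75 with saline in the olfactory bulb. It had 2.42 with PAMAM and 2.27 with saline in the hippocampus. In the cortex it had 2.22 with PAMAM and 1.54 with saline. The cortex difference of 0.67, or 1.59-fold, was the highest of any member in any region, and the olfactory bulb and hippocampus differences were 0.34 and 0.14. Among the saline arrays the cortex was the lowest for Fkbp5, and the signal spanned 0.32 over the 3 PAMAM arrays against 0.73 over the 3 saline arrays. The probe lies at chr17:28536060-28536119 (mm9, minus strand) and 98.9% of the probes well above background on all arrays had a smaller difference in the cortex.

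Zbtb16, which encodes the zinc finger repressor PLZF, had 2.71 with PAMAM and 2.27 with saline in the olfactory bulb. In the hippocampus it had 3.93 with PAMAM and 3.77 with saline. In the cortex it had 3.83 with PAMAM and 3.45 with saline. The PAMAM array was the higher of the pair everywhere, by 0.44, 0.15 and 0.37, and the olfactory bulb difference of 1.35-fold was the highest of the members in that region. Both olfactory bulb arrays lay below the other 4 arrays, by more than the PAMAM difference (probe at chr9:48462419-48462478, mm9, minus strand).

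Map3k6 encodes ASK2, a kinase at the head of a stress-activated kinase cascade. Its brighter probe, called probe 1 here, had -0.40 with PAMAM and -0.83 with saline in the olfactory bulb. It had -0.30 with PAMAM and -0.48 with saline in the hippocampus, and 0.19 with PAMAM and -0.19 with saline in the cortex. The dimmer probe 2, which starts 112 bases away on the genome, gave differences of 0.35, 0.17 and 0.41 against 0.43, 0.18 and 0.39 for probe 1. The probes thus read the same direction and nearly the same size in each region (chr4:132808784-132808843 and chr4:132808672-132808731, mm9, plus strand).

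Plin4, a lipid droplet coat protein of the perilipin family, had -0.92 with PAMAM and -1.27 with saline in the olfactory bulb. In the hippocampus it had 1.03 with PAMAM and 0.69 with saline. In the cortex it had 0.98 with PAMAM and 0.83 with saline. Its differences of 0.34 and 0.35 in the olfactory bulb and hippocampus were alike in size and that of the cortex, 0.15, was smaller, the reverse of the order seen for Fkbp5, whose hippocampus difference was its smallest. The probe lies at chr17:56240055-56240114 (mm9, minus strand).

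Tsc22d3 encodes GILZ, a leucine zipper protein that mediates part of the anti-inflammatory action of glucocorticoids. The olfactory bulb had 3.41 with PAMAM and 3.22 with saline, the hippocampus 4.01 with PAMAM and 3.76 with saline, and the cortex 4.22 with PAMAM and 4.02 with saline. Its differences of 0.19, 0.25 and 0.20 had an SD of 0.034 over the regions, the smallest spread of the 11 probes. The levels stayed in the order olfactory bulb, hippocampus, cortex within each treatment (chrX:137074094-137074153, mm9, minus strand).

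Sgk1, a kinase that raises sodium transport and is induced by glucocorticoids and mineralocorticoids, had 1.92 with PAMAM and 2.04 with saline in the olfactory bulb. In the hippocampus it had 3.23 with PAMAM and 3.26 with saline. In the cortex it had 3.33 with PAMAM and 3.48 with saline. The differences of -0.13, -0.031 and -0.14 were opposite in sign to those of the other 5 responsive genes in all 3 regions. That of the hippocampus was smaller in size than the spot-noise SD of 0.094. The probe lies at chr10:21719507-21719566 (mm9, plus strand).

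**Figure D2:**
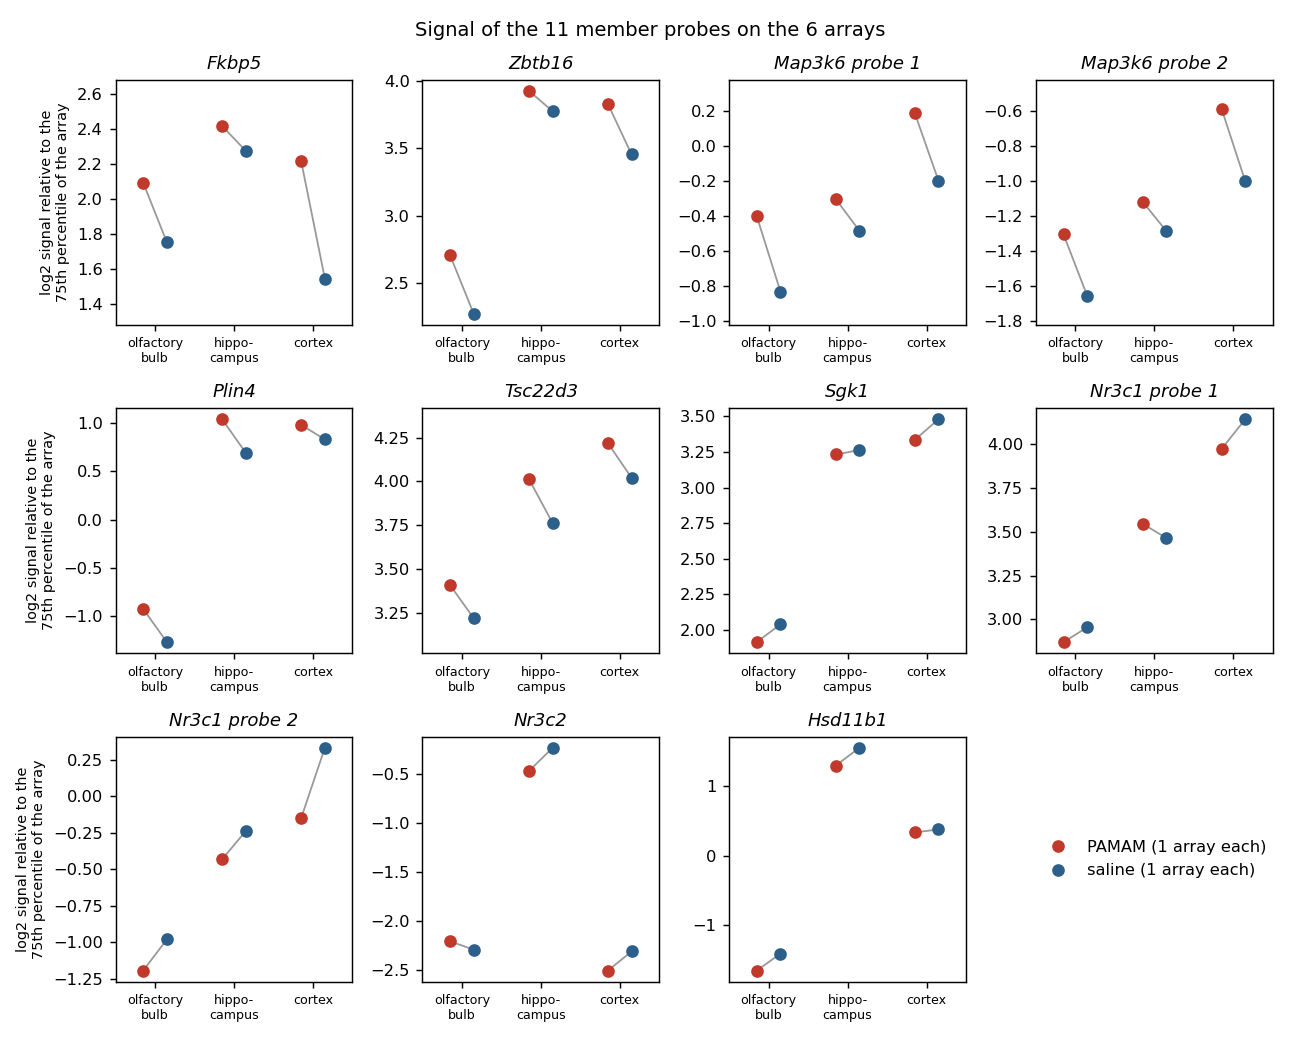
Log2 signal relative to the 75th percentile of the array (vertical axis, scaled per panel) for the 11 member probes on the 6 arrays, with PAMAM in red on the left and saline in blue on the right of each region and a line joining the pair. Fkbp5, Zbtb16, Map3k6, Plin4 and Tsc22d3 have the PAMAM point above the saline point in every region, while Sgk1, Nr3c1 probe 2 and Hsd11b1 have it below.

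The glucocorticoid receptor gene Nr3c1 was read by probes that start 2542 bases apart on the genome. The brighter probe 1 had 2.87 with PAMAM and 2.95 with saline in the olfactory bulb, 3.55 with PAMAM and 3.47 with saline in the hippocampus, and 3.97 with PAMAM and 4.14 with saline in the cortex. Probe 2 had -1.19 with PAMAM and -0.98 with saline in the olfactory bulb, -0.43 with PAMAM and -0.24 with saline in the hippocampus, and -0.15 with PAMAM and 0.33 with saline in the cortex. The probes did not give the same answer: probe 2 was lower with PAMAM in all 3 regions, by -0.21, -0.19 and -0.48, whereas probe 1 differed by -0.085, 0.081 and -0.17. The hippocampus values have opposite signs. The olfactory bulb and hippocampus differences of probe 1 were smaller in size than the spot-noise SD of 0.095 and 0.094. Which probe reads the transcript more faithfully was not tested. Both gave the same order of regions, with the cortex highest and the olfactory bulb lowest in each treatment.

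The mineralocorticoid receptor gene Nr3c2 was read by a probe at chr8:79766370-79766429 (mm9, plus strand), shown because the region result for this receptor rests on it alone. Capitals mark the stop codon that ends its first reading frame, which holds no other stop among its 20 codons.
Nr3c2 probe: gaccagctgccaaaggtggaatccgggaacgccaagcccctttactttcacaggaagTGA
Its signal was -0.47 with PAMAM and -0.23 with saline in the hippocampus. In the olfactory bulb it was -2.21 with PAMAM and -2.29 with saline, and in the cortex -2.50 with PAMAM and -2.31 with saline. The hippocampal arrays stood far above the other 4, and the treatment differences of 0.085, -0.24 and -0.20 for olfactory bulb, hippocampus and cortex were small beside that gap. Its olfactory bulb and cortex signals are dim, below the median of the probes measured in those regions.

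Hsd11b1, the enzyme gene, is the only member printed in 10 spots per array, so its spot noise was measured directly. It had -1.66 ± 0.089 with PAMAM and -1.42 ± 0.061 with saline in the olfactory bulb (SD, n = 10 spots each). In the hippocampus it had 1.30 ± 0.073 with PAMAM (SD, n = 10 spots) and 1.56 ± 0.030 with saline (SD, n = 8 spots, after 2 outlier spots were dropped). In the cortex it had 0.34 ± 0.064 with PAMAM and 0.38 ± 0.060 with saline (SD, n = 10 spots each). PAMAM minus saline was -0.25 for olfactory bulb, -0.26 for hippocampus and -0.043 for cortex. Spots of an array are repeats of the same RNA and not replicates of the treatment (probe at chr1:195048169-195048228, mm9, minus strand).

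The treatment was tested across regions with an additive limma fit on 34482 probes, with region as a covariate and 2 residual degrees of freedom. Its spread combines how far the treatment difference of a probe varies between regions with a value that limma estimates from all probes. That shared value counts as 5.51 degrees of freedom, against 2 from the probe itself. The intervals and p-values thus do not measure the variation of a probe between regions alone. The p-values also assume that the regions are independent samples, which they are not if they came from the same mice. No member passed an adjusted p of 0.05, with adjusted p from 0.478 to 0.878, and 0.0% of all probes did. In simulated data this fit called 0 of 50 probes changed by 0.5 on the log2 scale and 14 of 50 changed by 1. The simulation shuffled the spread among probes, so bright probes could get the spread of dim ones. Its rates therefore do not give the power for the members. A lack of calls, here or in the wider lists below, does not show that differences of the size fitted here are absent. At an unadjusted p of 0.05, 8 of the 11 member probes passed, against 6.38% of all probes, and since the genes were chosen with these data known that count is a description. The fitted difference was 0.38 for Fkbp5 (95% interval 0.16 to 0.61, adjusted p = 0.627 by limma), 0.32 for Zbtb16 (0.17 to 0.47, adjusted p = 0.478) and 0.21 for Tsc22d3 (0.10 to 0.33, adjusted p = 0.544), where the intervals are not adjusted for the number of probes.

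Map3k6 had fitted differences of 0.33 on probe 1 (0.14 to 0.52) and 0.31 on probe 2 (0.094 to 0.53), and Plin4 one of 0.28 (0.11 to 0.45). Those of Sgk1 at -0.10 (-0.22 to 0.022), Nr3c2 at -0.12 (-0.37 to 0.14) and Nr3c1 probe 1 at -0.058 (-0.20 to 0.084) had intervals that include 0. Nr3c1 probe 2 was at -0.30 (-0.50 to -0.093) and Hsd11b1 at -0.18 (-0.36 to -0.0057). The fit without the cortex pair gave 0.24 for Fkbp5, against 0.51 without the hippocampus pair, and the fitted differences of other members moved too. Nr3c2 was at -0.22 without the olfactory bulb pair and -0.055 without the hippocampus pair, and Nr3c1 probe 1 at -0.0018 without the cortex pair and -0.13 without the hippocampus pair. The hippocampus pair is also the only one whose arrays lie in different rows of the slide, so a row term absorbs its treatment difference. With the slide row as a term Fkbp5 therefore stood at 0.51 (adjusted p = 0.916), the same difference as without the hippocampus pair. These 2 alternatives are not separate checks of a fitted treatment difference.

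Regions differed more than treatments for most members. In the additive fit with treatment as a covariate, 9 of 11 member probes differed between olfactory bulb and hippocampus at an adjusted p of 0.05, all lower in the olfactory bulb, against 43.8% of all probes in either direction, 19.5% higher and 24.2% lower. Between olfactory bulb and cortex 9 of 11 differed, again all lower in the olfactory bulb, against 46.6% of all probes, 20.1% higher and 26.5% lower. Both olfactory bulb arrays lie in row 1 of the slide and both cortex arrays in row 2, so region and row cannot be told apart from these arrays alone. Between hippocampus and cortex 7 of 11 differed, 3 higher and 4 lower in the hippocampus, against 14.0% of all probes, 6.2% higher and 7.85% lower. That last count of members was 2 with the authors' processed values, 2 without the mean trend of the variance and 3 with the slide row as a term. The authors' values are close to probe-centred, so a fit to them has almost no such trend to use. There the value that limma shares over probes counted as 2.10 degrees of freedom, against 1.93 without the trend and 5.51 as reported. The first 2 of these alternatives are thus not separate checks.

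Hsd11b1 had the steepest order of regions, hippocampus above cortex above olfactory bulb. It was 2.97 lower in the olfactory bulb than in the hippocampus on the log2 scale (difference -2.97 ± 0.092, SE; adjusted p = 7.5e-07 by limma) and 1.07 ± 0.092 (SE) higher in the hippocampus than in the cortex (adjusted p = 0.000418). Nr3c2 was 4.15-fold higher in the hippocampus than in the cortex (log2 difference 2.05 ± 0.13, SE; adjusted p = 0.00015 by limma) and 3.72-fold lower in the olfactory bulb than in the hippocampus. With normexp background the hippocampus minus cortex difference of this dim probe was 1.46. Its olfactory bulb and cortex levels did not differ at the threshold, with an interval of the log2 difference from -0.15 to 0.47. These hippocampal differences of Nr3c2 and Hsd11b1 kept an adjusted p under 0.05 in every alternative run.

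Nr3c1 followed another order, cortex above hippocampus above olfactory bulb. Olfactory bulb minus cortex was -1.15 ± 0.075 on probe 1 and -1.18 ± 0.11 on probe 2 (SE; adjusted p = 1.77e-05 and 9.21e-05 by limma), so the probes that disagreed on the treatment gave nearly the same region difference. Hippocampus minus cortex was -0.55 on probe 1 and -0.43 on probe 2 (adjusted p = 0.00273 and 0.0373), and both calls were lost without the mean trend of the variance, with adjusted p = 0.0687 and 0.129.

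Among the responsive genes, Plin4, Sgk1 and Zbtb16 were at least 2-fold lower in the olfactory bulb than in either other region. Olfactory bulb minus cortex was -2.00 for Plin4, -1.43 for Sgk1 and -1.15 for Zbtb16 (SE 0.089, 0.064 and 0.080, adjusted p = 3.05e-06, 3.05e-06 and 2.46e-05 by limma). In hippocampus minus cortex these 3 genes did not pass, at -0.041 for Plin4 (95% interval -0.25 to 0.17), -0.16 for Sgk1 (-0.31 to -0.01) and 0.21 for Zbtb16 (0.022 to 0.40). Tsc22d3 was lower by -0.81 in olfactory bulb minus cortex and by -0.57 in olfactory bulb minus hippocampus (adjusted p = 3.16e-05 and 0.00018 by limma). Fkbp5 had -0.42 in olfactory bulb minus hippocampus (adjusted p = 0.0208, 0.0686 with quantile normalisation), 0.042 in olfactory bulb minus cortex (adjusted p = 0.794) and 0.46 in hippocampus minus cortex (adjusted p = 0.037, 0.311 with the slide row as a term). Map3k6 was lower in olfactory bulb minus cortex by -0.61 on probe 1 and -0.69 on probe 2 (adjusted p = 0.00182 and 0.00195), the call of probe 2 being lost with the slide row as a term (adjusted p = 0.0534). In hippocampus minus cortex its probe 1 passed at -0.39 (adjusted p = 0.0406, 0.0593 with quantile normalisation) while probe 2 did not at -0.41 (adjusted p = 0.0542). The hippocampus minus cortex call of Tsc22d3, at -0.23 (adjusted p = 0.0395), was likewise lost with quantile normalisation (adjusted p = 0.123).

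**Figure D3:**
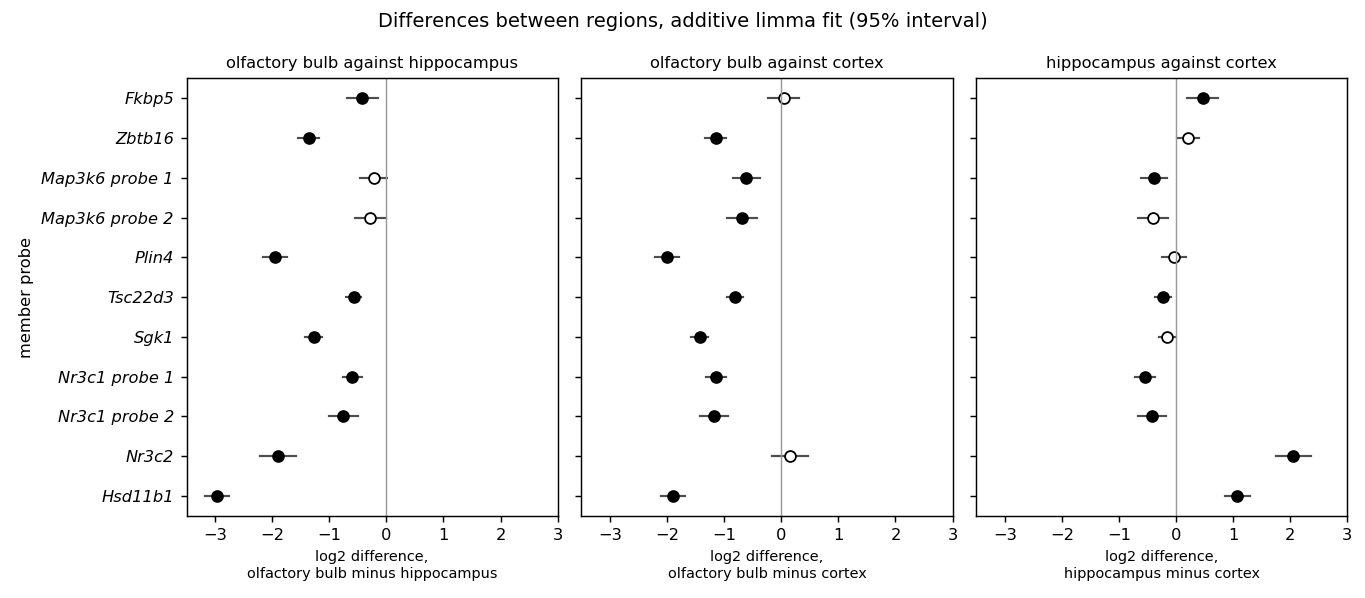
Log2 differences between regions (horizontal axes, first region minus second) for the 11 member probes (rows) from the additive limma fit on all 6 arrays, with bars for the 95% interval. Filled points pass an adjusted p of 0.05, and all filled points of both olfactory bulb panels lie below 0, while Nr3c2 and Hsd11b1 lie above 0 in the hippocampus against cortex panel.

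A wider list of 36 glucocorticoid-responsive genes was read beside the members, of which 35 were found under their names and all 35 were well above background on all arrays. Of these 35, the number higher with PAMAM was 20 for olfactory bulb, 20 for hippocampus and 22 for cortex, against 48.9%, 50.7% and 49.6% of all probes. The medians were 0.032, 0.023 and 0.16. By more than the spot-noise SD in all 3 regions 3 of 35, or 8.57%, were higher and 2 were lower, against 3.17% and 4.27% of all probes. In the additive limma fit 0 of 35 passed an adjusted p of 0.05 and 10 an unadjusted one, against 6.38% of all probes, the lowest adjusted p being 0.528. The list was chosen with earlier results of these data known, and the brightest probe stands for each gene. Its counts are therefore a description.

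Cdkn1a, a cell cycle inhibitor that p53 also induces, had the largest mean difference of that list, with 0.20 for olfactory bulb, 1.31 for hippocampus and 1.59 for cortex, the only 2-fold differences in the list. In hippocampus and cortex its probe did not lie above the median measured probe on both arrays, with -1.26 and -0.48 with saline. Mertk, a receptor for the clearance of dying cells, was at 0.26, 0.26 and 0.22, and Tgm2, a transglutaminase, at 0.056, 0.16 and 0.47. The sulfotransferase gene Sult1a1 was at 0.19, 0.074 and 0.35, and Gjb6, a connexin of astrocytes, at 0.13, 0.096 and 0.30. Arrdc2, an arrestin-domain gene, was the lower one of the 6 examples, at -0.14, -0.14 and -0.24.

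A second list held 22 genes of the hormone axis, the receptor chaperones and the coregulators, 17 of them well above background on all arrays. Those higher with PAMAM were 12 of 17 measured for olfactory bulb, 10 of 19 for hippocampus and 10 of 17 for cortex, against 48.9%, 50.7% and 49.6% of all probes, with medians of 0.070, 0.015 and 0.069. Crh, the releasing hormone that starts the stress axis and is also a peptide of local interneurons, was at 0.54, 1.23 and 0.56. In the hippocampus its probe was dim, with -1.58 with saline, and did not lie above the median measured probe on both arrays. Stip1, the co-chaperone that passes clients to HSP90, was at 0.26, 0.21 and 0.37, and Hsp90ab1, which holds the receptor ready for hormone, at 0.19, 0.074 and 0.26.

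H6pd, which supplies the NADPH that Hsd11b1 needs, was at -0.10, -0.36 and -0.69. The Crh receptor gene Crhr2 was at 0.074, 0.25 and 0.17, and the Crh binding protein gene Crhbp at 0.38, -0.16 and 0.28. Neither H6pd nor Crhr2 lay above the median measured probe on both arrays of any region. In the additive limma fit 0 of 19 genes tested passed an adjusted p of 0.05 and 6 an unadjusted one, against 6.38% of all probes, the lowest adjusted p being 0.398. This list, too, was chosen with earlier results known and read by the brightest probe of each gene, so its counts are a description.

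**Figure D4:**
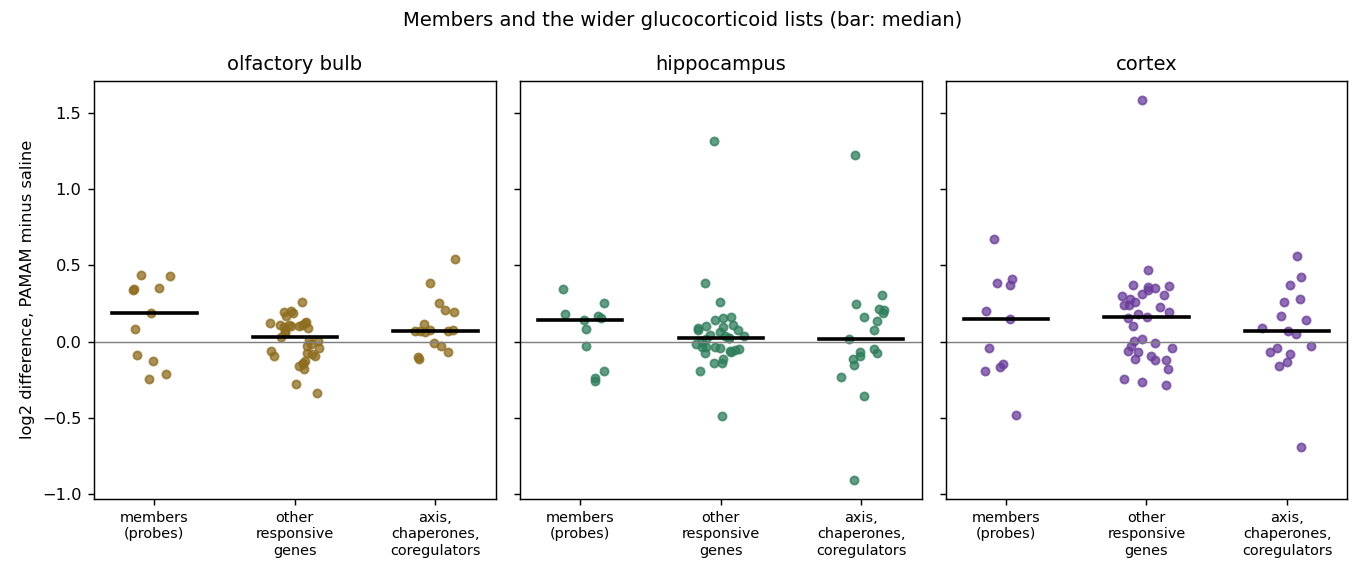
Log2 difference of PAMAM minus saline (vertical axis) in each region for the 11 member probes, the other glucocorticoid-responsive genes and the hormone axis, chaperone and coregulator genes, 1 point per probe or gene with a bar at the median. Cdkn1a is the top point of the hippocampus and cortex panels, at 1.31 and 1.59, and most other points lie within 0.5 of 0.

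The genes with the pattern most like a member over the 6 arrays were found by the distance between values centred on each probe's mean. For Map3k6 the nearest was the clock gene Per2, with differences of 0.34, 0.24 and 0.25 and a Pearson r of 0.991 over 6 arrays. For Tsc22d3 it was Rcan1, a calcineurin regulator, with 0.14, 0.17 and 0.16 (r = 0.995), and for Fkbp5 it was Enox1, with 0.27, 0.041 and 0.56 (r = 0.993). For Hsd11b1 it was the ephrin receptor gene Epha7 (r = 0.998) and for Sgk1 the transcript 1700047M11Rik (r = 0.999). Nearest to Nr3c1 was Shisa4 (r = 0.996), and Spef2 and Dgkg were nearest to Nr3c2, at larger distances of 0.341 and 0.411, against 0.086 for 1700047M11Rik. Cadm1 followed Zbtb16, Khdrbs3 followed Plin4, and Pigt, Sidt1 and 6330403A02Rik took the other place for Tsc22d3, Sgk1 and Hsd11b1. The remaining places fell to probes named only by a genomic interval. The arrays share region differences, which fix most of such an r, and it is given as a description.

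The labelled regions were checked with lists of marker genes that were chosen with earlier results of these data known. All 10 olfactory bulb, all 9 hippocampal and all 7 cortical neuron markers found were higher in their own region than the mean of the others, with PAMAM and with saline. Of 59305 non-control spots, 34134 to 39057 per array were well above background and 0 were saturated. The same lists also differed by treatment within regions. In the hippocampus 0 of 8 hippocampal neuron markers measured were higher with PAMAM (median difference -0.21, summed signals 56.5 with PAMAM and 67.5 with saline, in multiples of the 75th percentile), while 6 of 7 cortical ones were (26.7 with PAMAM and 23.2 with saline). Nr3c2 and Hsd11b1, both highest in the hippocampus, differed there by -0.24 and -0.26, and the part of regional makeup in these values was not tested. In the cortex 4 of 5 hippocampal markers measured were higher with PAMAM (31.8 with PAMAM and 23.9 with saline), 1 of 7 cortical ones (47.9 and 52.2) and 1 of 8 olfactory bulb ones (median -0.42). Summed signals here cover every marker found on the array, also those not counted as measured. Of the 9 hippocampal markers, 2 with PAMAM and 4 with saline were not well above background in the cortex. In the olfactory bulb 4 of 10 olfactory bulb, 1 of 5 hippocampal and 2 of 6 cortical markers measured were higher, and 5 of 9 olfactory bulb markers were in the hippocampus. Markers of neighbouring tissue differed by treatment as well. Choroid plexus markers were higher with PAMAM for 8 of 8 measured in the cortex, with summed signals of 24.2 with PAMAM and 5.03 with saline, for 10 of 10 of the hippocampus (277.5 with PAMAM and 171.4 with saline) and for 3 of 7 of the olfactory bulb (6.21 and 6.45). Meningeal markers were higher in 9 of 9 in the cortex (14.6 with PAMAM and 7.39 with saline), 4 of 9 of the hippocampus (22.5 and 21.9) and 1 of 9 of the olfactory bulb (37.8 and 40.0). Endothelial markers were higher for 8 of 10 in the cortex (36.9 with PAMAM and 31.0 with saline), 6 of 10 of the hippocampus (28.2 and 25.0) and 5 of 10 of the olfactory bulb (32.5 and 30.0). Red blood cell markers were higher for 4 of 4 measured in the cortex, 5 of 5 of the hippocampus and 3 of 5 of the olfactory bulb, and microglial ones for 6 of 6, 3 of 6 and 4 of 6. In the same order, astrocyte markers were higher for 5, 3 and 3 of 8, oligodendrocyte markers for 3, 7 and 4 of 9 and general neuron markers for 5, 3 and 2 of 6. Of the 10 choroid plexus markers, 2 were not well above background with saline in the cortex, and 3 with PAMAM and 2 with saline in the olfactory bulb, while every meningeal and endothelial marker was well above background on every array. The part of such tissue in the member differences was not tested in any region.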

How the data were processed

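Gene expression was measured on 6 Agilent 1-colour arrays, 1 per region and treatment, grouped by the labels. Per the file headers, each deposited scanner file gives linear spot intensity, made with Feature Extraction 10.7.3.1 on build mm9, and gene names are those of the files. A second deposited table gives log2 values by the authors. Its centring is unstated; over 29553 probes it correlated with the probe-centred values used here with r from 0.99987 to 0.99997, and its column medians ran from -0.0906 in the saline olfactory bulb to 0.0432 in the saline cortex. How the authors treated repeated spots stays unknown.

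Processed signals were log2 transformed and scaled by subtracting the 75th percentile of non-control spots per array. Values exist for 55666 of 55681 probes after outlier spots were dropped, each the mean of its spots. A probe counted as measured in a region when well above background on both arrays. With 1 array per group no test was made within a region. The additive model was fitted with limma 3.58.1 (lmFit, eBayes with trend) in R 4.3.3 on probes measured in at least 1 region, with Benjamini-Hochberg adjustment over all 34482, and the code was tested on simulated data. Summaries used Python 3.11.15.

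Every probe of each member is reported. From each wider list the 6 genes with the largest absolute mean difference over the regions were named, by the brightest probe and among those well above background on all arrays, and for the brightest probe of each member the 2 genes with the smallest Euclidean distance. The members, both wider lists and the marker lists (endothelial, choroid plexus, meninges, oligodendrocyte, astrocyte, microglia, neuron, red blood cell and the neurons of each region) were chosen with earlier results of these data known. The spot-noise rule over all 3 regions and the motif search were chosen after seeing the data. Alternatives were normexp background, quantile or median scaling, the authors' table, outlier spots kept, other filters on dim probes, no variance trend, slide row as a term and leaving out each region. All arrays lie on the same slide. The number of arrays limits the precision.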

Additional observations from a re-analysis of the deposited data

How the results depend on the processing

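In all 6 ways of computing the values, the 6 probes of Fkbp5, Zbtb16, Map3k6, Plin4 and Tsc22d3 were higher with PAMAM by more than the spot-noise SD in each region, while 2.55% to 3.51% of all probes were. All 6 ways use the same arrays, and the genes and this rule were chosen with the data known, so these shares are a description. The only member difference within a region that changed sign was that of Hsd11b1 in the cortex, from -0.049 to 0.0017. The number of probes at least 2-fold apart was 103, 212 and 247 for olfactory bulb, hippocampus and cortex as reported, but 34, 75 and 53 with normexp background, 3115, 3555 and 3617 with no filter on dim probes, and 6, 8 and 12 among brighter probes. The cortex split was 99 higher and 148 lower as reported, 136 and 105 with quantile normalisation and 29 and 24 with normexp. The additive fit of the treatment called 0 probes, but 1 with scaling by the median of detected probes (adjusted p = 0.0448), 65 with no filter, and 0 to 26 when a region was left out (7 without the olfactory bulb, 26 without the cortex). No member was called in any of these fits, where adjusted p for the members ran as low as 0.0697 (Zbtb16 with no filter).

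With the slide row as a term, olfactory bulb against cortex gave 5183 calls, against 16072 as reported, and hippocampus against cortex 1878, against 4844. Hippocampus against cortex gave 1835 from the authors' processed values and 1727 without the trend. Member calls there numbered 2, 2 and 3 from the authors' values, without the trend and with the slide row. The first 2 of these fits are not separate checks, since the authors' values are close to probe-centred. Olfactory bulb minus cortex turned to -0.32 for Fkbp5 with the slide row (adjusted p = 0.324) and for Nr3c2 to -0.045 with normexp background and -0.023 with the slide row. Hippocampus minus cortex of Plin4 turned to 0.0091 with the slide row. Both olfactory bulb arrays lie in row 1 and both cortex arrays in row 2. The slide-row term thus rests on the hippocampus pair alone. None of these turned differences was called in either form, and the cause was not tested. No paired analysis by replicate number was possible because each group has 1 array and the labels give none, and the additive fit compares the arrays within each region.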

Other observations

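Among the wider list, Txnip, a thioredoxin-binding protein, differed most in sign between regions, at -0.18 for olfactory bulb, -0.49 for hippocampus and 0.37 for cortex, PAMAM minus saline, and its other probe averaged -0.028 over the regions. Dusp1, a phosphatase that acts on stress-activated kinases, was at -0.077, 0.38 and -0.067. These genes were chosen after their values were seen. The metallothionein genes Mt1 and Mt2, which glucocorticoids and metals induce, were at 0.12 and 0.19 for olfactory bulb, 0.046 and 0.061 for hippocampus and 0.24 and 0.26 for cortex, but another probe of Mt1 averaged -0.29 over the regions.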
